A study of Homo sapiens with 22 samples.

Results

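The regions described here are 150 N-MYC binding regions of CHP-134 neuroblastoma cells that carried an N-MYC peak in all 3 libraries of DMSO-treated cells and no peak in either large N-MYC library of compound-treated cells. They were chosen by measured values, the peak calls of the 3 DMSO lists and of compound replicates 1 and 3, after DMSO peaks that share at least 1 bp had been merged. Of 6969 regions found in all 3 DMSO libraries, 150 were lost in this sense (2.15%), 5940 were kept in both compound lists, and 879 were absent from 1 compound list, namely 618 from replicate 1 alone and 261 from replicate 3 alone. ChIP-seq, which sequences the genomic DNA that an antibody brings down together with its target protein, had been done for N-MYC and for WDR5, with 3 libraries per antibody of CHP-134 cells given 0.0005% DMSO by the labels, 3 per antibody of CHP-134 cells given the compound for 4 h, and 2 per antibody of untreated IMR-32 cells. CHP-134 and IMR-32 are established neuroblastoma lines with amplified MYCN. The compound is named in several ways in the labels and its dose is not given, so it is called the compound here.

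N-MYC, the product of MYCN, is a basic helix-loop-helix leucine zipper transcription factor that pairs with MAX and binds E-boxes, above all the hexamer CACGTG, mostly in active promoters. WDR5 is a WD-repeat protein that holds together the MLL/SET1 histone H3 lysine 4 methyltransferase complexes, and one of its surfaces binds MYC proteins. In many cell types WDR5 sits just downstream of the transcription start site (TSS) of a small set of protein synthesis genes, ribosomal protein genes foremost. Ribosomal proteins and rRNA together form the ribosome, and their genes are classic MYC targets.

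The windows below are the 201 bases centred on the median N-MYC summit of 5 of the strongest lost regions, cut back where they ran into a UTR, and are shown because they show both promoter sequence with strong WDR5 and no E-box and E-box sequence without WDR5. All are given 5′ to 3′ on the plus strand of hg19 (GRCh37), with CACGTG or, where it was absent, other CANNTG in capitals. CANNTG reads the same pattern on both strands and includes CACGTG. Of all 6969 regions, 35.8% held CACGTG and 69.5% held CANNTG in such a 201-base window. The first 3 windows lie at RPL5 (chr1:93297672-93297836), RPS3A (chr4:152020805-152020991) and RPL36 (chr19:5690339-5690491), ribosomal protein genes with strong WDR5 in DMSO. The windows at PUS7L, a pseudouridine synthase-like gene (chr12:44152012-44152212), and in a stretch outside genes whose nearest TSS belongs to the long noncoding RNA gene ENSG00000286278 (chr6:88589311-88589511), had no WDR5 peak in any DMSO library.
RPL5: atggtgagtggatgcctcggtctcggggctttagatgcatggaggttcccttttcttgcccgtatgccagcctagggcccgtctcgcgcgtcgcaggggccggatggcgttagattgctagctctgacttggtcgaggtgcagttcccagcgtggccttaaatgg
RPS3A: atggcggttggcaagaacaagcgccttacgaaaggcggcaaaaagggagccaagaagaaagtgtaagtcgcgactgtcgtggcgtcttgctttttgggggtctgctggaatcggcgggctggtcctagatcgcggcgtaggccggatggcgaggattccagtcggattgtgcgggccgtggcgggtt
RPL36: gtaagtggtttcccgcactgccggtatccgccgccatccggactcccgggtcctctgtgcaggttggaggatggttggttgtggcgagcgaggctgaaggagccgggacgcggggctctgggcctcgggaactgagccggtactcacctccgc
PUS7L: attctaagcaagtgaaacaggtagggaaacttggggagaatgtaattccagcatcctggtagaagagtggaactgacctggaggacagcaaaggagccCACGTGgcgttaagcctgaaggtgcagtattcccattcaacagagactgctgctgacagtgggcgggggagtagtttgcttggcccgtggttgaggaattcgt
ENSG00000286278: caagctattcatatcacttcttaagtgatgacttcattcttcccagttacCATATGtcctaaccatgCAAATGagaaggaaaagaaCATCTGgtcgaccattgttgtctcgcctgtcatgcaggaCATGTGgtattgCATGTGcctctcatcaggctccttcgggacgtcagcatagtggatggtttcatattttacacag
The PUS7L window held 1 CACGTG, which began 2 bases before the summit, and the window outside genes held 5 CANNTG hexamers of which none was CACGTG. The 3 windows at ribosomal protein genes held none.

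The lists differed in size, which bears on every share below. The DMSO N-MYC lists held 15286, 9125 and 12283 peaks and the compound N-MYC lists 11249, 2964 and 12313, so compound replicate 2 was the small list that the selection left aside. The DMSO WDR5 lists held 4891, 1758 and 1671 peaks, and the compound WDR5 lists 5973, 15 and 401. Compound WDR5 replicate 2, with 15 peaks, stood apart, and results that rest on it are given with and without it. The IMR-32 lists held 8286 and 5242 N-MYC peaks and 1693 and 1258 WDR5 peaks. The lists hold no read counts, so depth is unknown, and a region without a peak is one where no peak was called at the authors' threshold, not one shown to be free of the protein. Peak lists cannot check the identity of a cell line.

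As selected, the lost regions were mostly weak N-MYC sites. Peaks were ranked by their fold over local background within each list, where a percentile of 100 is the strongest peak, and percentiles were averaged over the 3 DMSO libraries. The median mean percentile was 34.2 at lost regions (quartiles 24.5 and 48.6, range 3.11 to 90.8), 39.2 at regions absent from 1 compound list and 65.0 at kept regions. Lost regions made up 7.32% of the weakest decile of all regions (51 of 697) and none of the strongest decile (0 of 696). Their median width was 634.5 bp, against 844 bp at kept regions. From a lost region to the nearest compound peak the median distance was 32098.5 bp, with 9 regions within 500 bp of one and 111 over 10 kb away. Just outside the selection, the weakest compound peaks that kept a region off the list had a −log10 q of 1.58 at CHID1, 1.67 at RAD21 and 1.68 at NUAK1. The number of members depended on the libraries: it was 411 without compound replicate 1 in the selection and 768 without compound replicate 3, and 255, 602 and 396 without DMSO replicate 1, 2 and 3. These values describe how the members were chosen and were not tested.

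**Figure D1:**
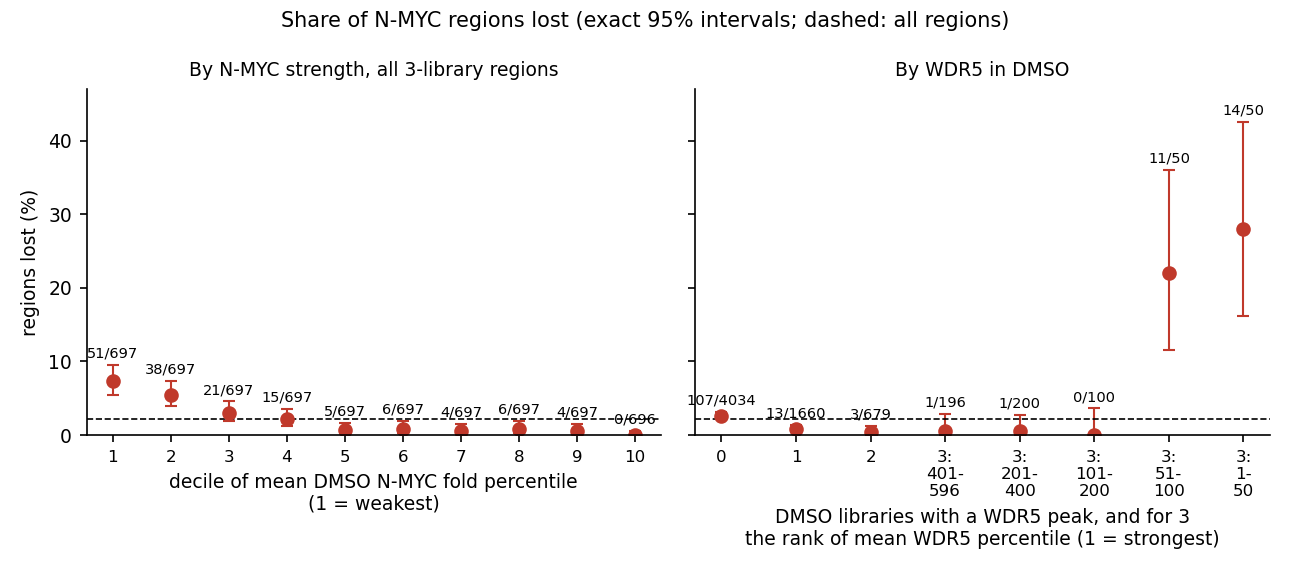
Percent of N-MYC regions lost (vertical axis) by decile of the mean DMSO N-MYC percentile (left) and by the number of DMSO libraries with a WDR5 peak, with regions of all 3 divided by WDR5 rank (right), each point with its exact 95% interval and the dashed line at 2.15%. The share falls from 7.32% to 0 along N-MYC strength, while along WDR5 it is 2.65% with no library, 0.442% with 2 and 28.0% among the 50 regions with the strongest WDR5.

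A group of the lost regions carried the strongest WDR5 peaks of these cells. The share of regions lost was 2.65% where no DMSO library had a WDR5 peak (107 of 4034), 0.783% with 1 library (13 of 1660), 0.442% with 2 (3 of 679) and 4.53% with all 3 (27 of 596, exact 95% interval 3.01 to 6.52), beside 2.15% of all regions. The rise with all 3 libraries came from the strongest WDR5 sites. Regions were called strong in WDR5 when they overlapped one of the 200 WDR5 peaks with the highest fold in each of the 3 DMSO libraries, a measure chosen after the data were seen. Of 123 such regions, 25 were lost (20.3%, exact 95% interval 13.6 to 28.5), 24 were absent from 1 compound list and 74 were kept. Of the other 473 regions with WDR5 in all 3 libraries, 2 were lost (0.423%, 0.0512 to 1.52), at PSTK and at AP1S1, a clathrin adaptor subunit. Ranked by mean WDR5 percentile, 14 of the first 50 regions were lost (28.0%, 16.2 to 42.5), 11 of the next 50 (22.0%), 0 of the next 100, 1 of the next 200 and 1 of the last 196.

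The same held on both sides of a mean N-MYC percentile of 50. Among regions with a mean N-MYC percentile of 50 or more, 17 of 103 with strong WDR5 were lost (16.5%) and 17 of the other 4504 (0.377%). Under 50, the counts were 8 of 20 (40.0%) and 108 of 2342 (4.61%). A strong WDR5 site was thus lost more often at both levels of N-MYC, by counts for which no test across regions was made.

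**Figure D2:**
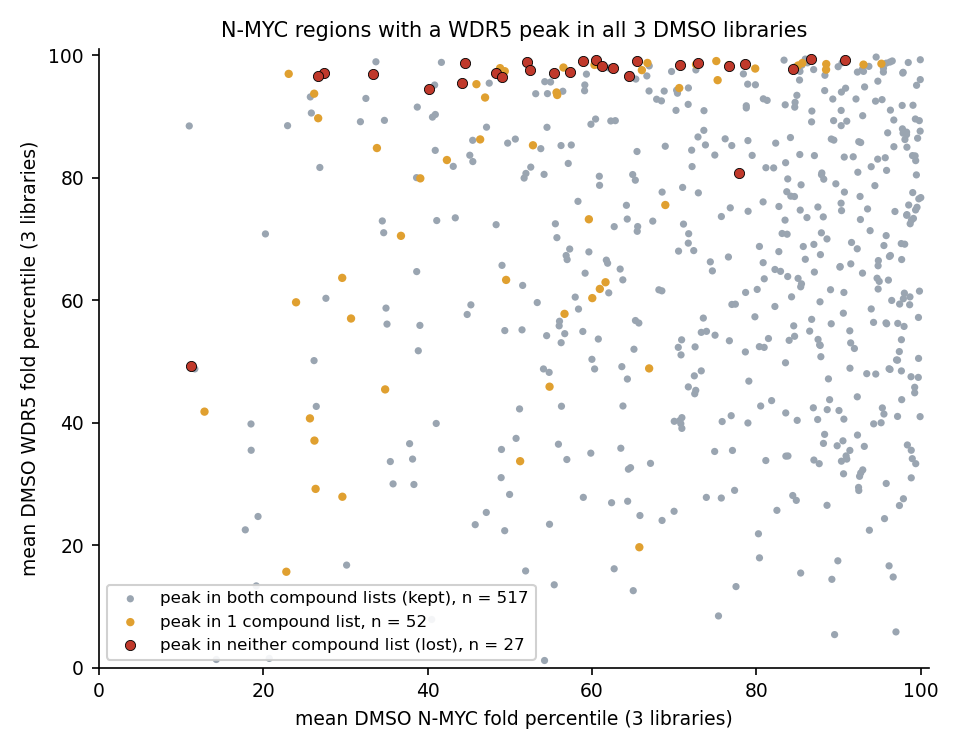
Mean DMSO WDR5 fold percentile (vertical axis) against mean DMSO N-MYC fold percentile (horizontal axis) for the 596 N-MYC regions with WDR5 in all 3 DMSO libraries, coloured as lost (27), absent from 1 compound list (52) and kept (517). The lost regions lie along the upper edge at a median WDR5 percentile of 97.7 and spread over N-MYC percentiles from 11.2 to 90.8, with PSTK and AP1S1 as the 2 lower points.

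Library by library, the strong WDR5 sites gave an even difference and WDR5 peaks of any strength did not. The kept regions were weighted to the deciles of mean N-MYC percentile in which the lost ones fell. Like N-MYC strength below means this weighting alone, with width, q-value and the lowest of the 3 percentiles not matched. In each of the 3 DMSO libraries 25 of 150 lost regions (16.7%, exact 95% interval 11.1 to 23.6) overlapped one of the 200 strongest WDR5 peaks, against 0.772%, 0.790% and 0.808% of kept regions. The difference was 15.9 ± 0.018 percentage points (SD, n = 3 libraries), positive in 3 of 3 (two-sided exact sign-flip permutation test over libraries, p = 0.25, which no result with n = 3 can go below). Each library counted the same 25 lost regions, so this SD covers only the kept share and not the choice of regions. The difference was smaller with any 1 N-MYC library left out of the selection, at 7.69 and 4.29 points without compound replicate 1 and 3, and 5.00 points without DMSO replicate 2. With any WDR5 peak, of whatever strength, the shares were 26.0%, 22.7% and 18.0% of lost regions and 29.2%, 12.4% and 8.51% of kept ones. That difference of 5.51 ± 7.57 points was smaller than its spread, with the largest WDR5 list going the other way (exact sign-flip permutation test, p = 0.5), and its sign changed with the libraries that chose the regions.

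**Figure D3:**
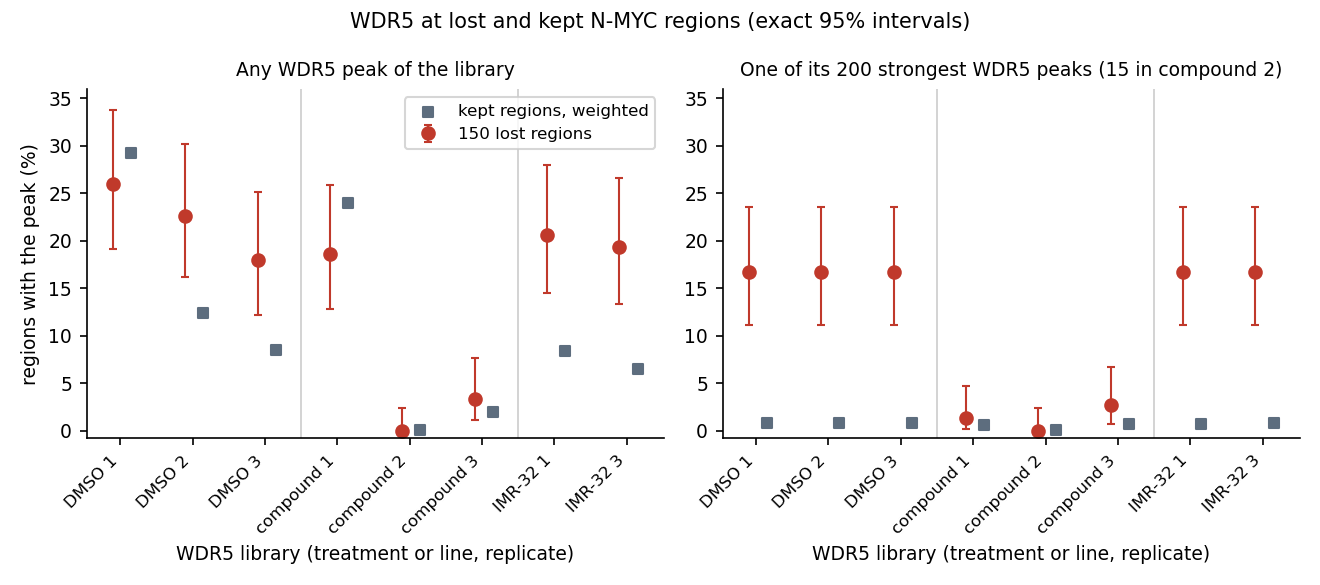
Percent of regions with any WDR5 peak (left) and with one of the 200 strongest WDR5 peaks (right) in each WDR5 library, for the 150 lost regions with exact 95% intervals (circles) and for kept regions weighted to the same deciles of mean N-MYC percentile (squares). Strong WDR5 was at 16.7% of lost regions in every DMSO and IMR-32 library and at 1.33%, 0 and 2.67% in the compound libraries.

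The 25 lost regions with strong WDR5 held 15 of the cytosolic ribosomal protein genes. The strongest N-MYC site of all members was RPL5, a protein of the large subunit that binds 5S rRNA (region chr1:93297473-93298310, summit 122 bp downstream of the TSS, in an intron), with N-MYC folds of 7.44, 9.09 and 17.1 in DMSO replicates 1 to 3. WDR5 at RPL5 had folds of 52.5, 59.6 and 85.8, ranks 31, 28 and 3 of their lists. No compound WDR5 library had a peak there, whereas RPL5 was the strongest WDR5 peak of both IMR-32 lists.

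RPS3A, a protein of the small subunit (chr4:152020439-152021302), had N-MYC folds of 6.08, 6.88 and 8.89 and WDR5 folds of 40.9, 56.9 and 65.0. RPL36, of the large subunit (chr19:5690030-5690843), had N-MYC folds of 6.15, 8.96 and 6.31 and WDR5 folds of 42.4, 68.3 and 45.9. At RPL24, also of the large subunit (chr3:101405037-101405796), the N-MYC folds were 9.98, 4.63 and 8.88 and the WDR5 folds 70.1, 40.3 and 76.5. By their choice for strong WDR5, WDR5 at each of these 3 genes was far stronger within its list than N-MYC within its own. Compound WDR5 replicate 1 listed a peak at them at rank 3311, 1894 and 228, with none in replicates 2 and 3. The other 11, named after their values were seen, were RPL6, RPL38, RPL26, RPS15A, RPL31, RPL17, RPL12, RPL32, RPL29, RPS6 and RPS14, with mean N-MYC percentiles from 70.7 (RPL6) to 26.7 (RPS14). RPL6 (chr12:112846848-112847536) was the 1 region of the 25 that was also among the 200 strongest WDR5 peaks of compound replicate 1, at rank 30 of 5973, and it was at rank 102 of 401 in replicate 3.

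The remaining 10 regions with strong WDR5 included PPP2R2A, a regulatory subunit of protein phosphatase 2A (chr8:26148818-26149789), with N-MYC folds of 6.15, 12.4 and 9.97. Its WDR5 folds were 65.6, 78.3 and 61.3, the strongest WDR5 peak of DMSO replicate 2 among them, and compound replicate 1 listed it at rank 1606 with a fold of 4.72. SNRPB, a core Sm protein of the spliceosome (chr20:2450914-2451667), had N-MYC folds of 6.23, 5.00 and 7.30 and WDR5 folds of 57.9, 55.0 and 82.5. USP39, a protein of the tri-snRNP (chr2:85839032-85839736), was a weaker N-MYC site, with folds of 3.94, 3.48 and 5.12, but had WDR5 folds of 34.6, 37.6 and 44.1. Both spliceosome genes had strong WDR5, with mean N-MYC percentiles of 65.5 at SNRPB and 27.4 at USP39. RPS4Y1, a further ribosomal protein gene that is not on the list used, was also among the 10. The others, named after their values were seen, were the chaperonin subunit genes CCT7 and CCT4, the kinase gene CSNK1E, AKIRIN2, the glycosyltransferase gene MGAT4B, and a site on chromosome 13 whose nearest TSS is that of ENSG00000276854, 4342 bp away. WDR5 at CCT7 ranked 42, 2 and 27 in DMSO and 2751 of 5973 in compound replicate 1.

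The same 25 regions were read in the other WDR5 lists. They had been chosen for their DMSO ranks and the lists differ in length, so ranks are given side by side, with no test and no change read from them. Their median rank was 47, 45 and 50 in the 3 DMSO libraries, of 4891, 1758 and 1671 peaks. In compound replicate 1, the largest WDR5 list, 19 of 25 had a peak, at a median rank of 3154 of 5973, and 1 was among the 200 strongest. Compound replicate 2 listed none of them, and replicate 3 listed 3 of them, at ranks 102, 192 and 353 of 401. In IMR-32, which had no part in their choice, all 25 were among the 200 strongest peaks of both libraries, at median ranks of 40 of 1693 and 49 of 1258. Of the 74 kept regions chosen in the same way for strong WDR5, 59 had a peak in compound replicate 1, at a median rank of 992, and 28 in replicate 3. Of the 24 absent from 1 N-MYC list, 17 had one in replicate 1, at a median rank of 2249, and 6 in replicate 3. Strong WDR5 in IMR-32 was shared by these groups. Among the 200 strongest peaks of its replicates 1 and 3 were 61 and 63 of the 74, and 21 and 23 of the 24.

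The strongest 200 peaks were then taken anew from each library. They came from 4891, 1758 and 1671 peaks in DMSO and from 5973 and 401 in compound replicates 1 and 3, so strong is not a like level between lists. Strong WDR5 was at 1.33%, 0 and 2.67% of all 150 lost regions in the compound libraries, where the 0 came from the list of 15 peaks. This was 15.3 points below DMSO (exact permutation test over libraries, 3 against 3, two-sided, p = 0.1, the smallest this design can give), and without compound replicate 2 the difference was −14.7 points (exact permutation test, p = 0.2). The 200-peak measure was chosen after the DMSO lists had been seen, so DMSO may be high through that choice. No change under the compound is read from this test. The DMSO and compound libraries did not overlap. Nor did they for kept regions of like N-MYC strength, at 0.772%, 0.790% and 0.808% in DMSO and 0.624%, 0.0201% and 0.731% with the compound. For all kept regions, without weighting, they did overlap, at 1.84%, 1.72% and 1.70% in DMSO and 2.05%, 0.219% and 2.21% with the compound. The lost-minus-kept difference in any WDR5 peak, in contrast, moved by −6.83 points from DMSO to compound, a change the libraries did not separate (exact permutation test, p = 0.3), and by −7.47 points without compound replicate 2 (exact permutation test, p = 0.4).

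**Figure D4:**
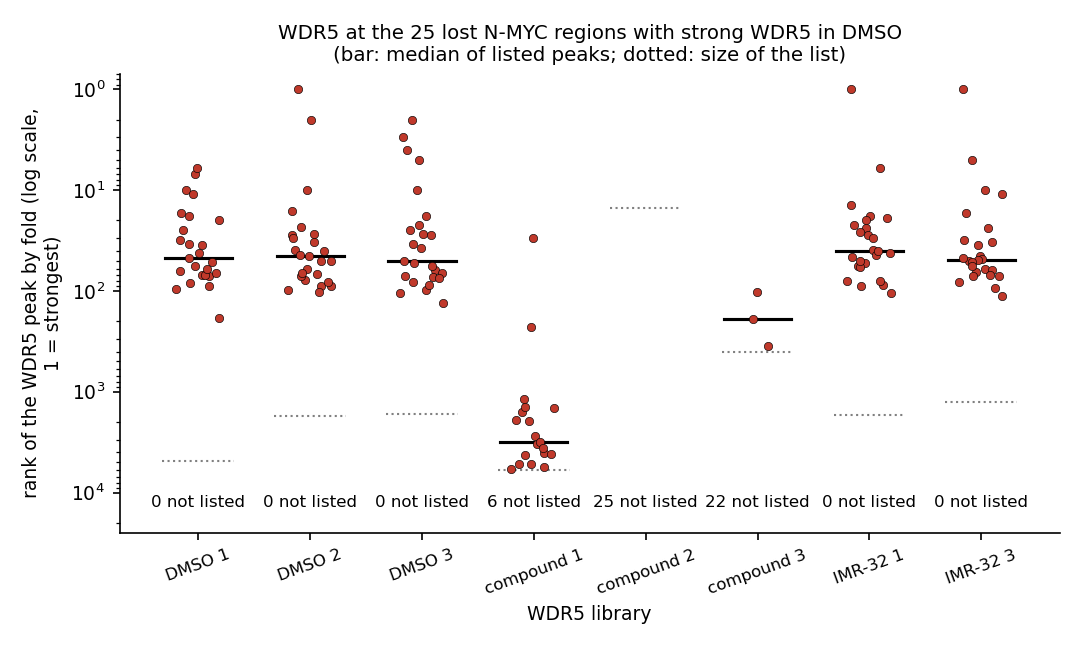
Rank of the WDR5 peak by fold (vertical log axis, 1 is strongest) at the 25 lost regions with strong WDR5, in each of the 8 WDR5 libraries, with a bar at the median of the listed peaks and a dotted line at the size of the list. The medians are 47, 45 and 50 in DMSO, 3154 in compound replicate 1 and 40 and 49 in IMR-32, while compound replicates 2 and 3 list 0 and 3 of the 25.

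A lost region with WDR5 listed under the compound but not in DMSO was SPPL3, an intramembrane protease gene named after its values were seen (chr12:121342069-121342533). It had CACGTG at its summit and no WDR5 peak in DMSO, yet ranked 118 and 155 in compound WDR5 replicates 1 and 3. With RPL6, it made up the 2 lost regions with one of the 200 strongest peaks of compound replicate 1. In replicate 3 RPL6, RPS15A, SPPL3 and RETREG2 made up the 4.

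Libraries that played no part in the choice were then read at the same regions. The small compound N-MYC list, replicate 2, had a peak at 7 of 150 lost regions (4.67%, exact 95% interval 1.90 to 9.38), against 18.7% of kept regions of like N-MYC strength. It had a peak at 0 of the 27 with WDR5 in all 3 DMSO libraries (upper limit of the interval 12.8%). Lost regions were chosen for no peak, and kept ones for a peak, in compound replicates 1 and 3. A lower share in another library of that group is expected from this choice and is no independent support. Across all regions with strong WDR5 the small list had a peak at 30 of 123 (24.4%, 17.1 to 33.0), against 54.4% of other regions of like N-MYC strength. With the 25 lost ones set aside this was 30 of 98 (30.6%, 21.7 to 40.7) against 59.6%, and for ribosomal protein genes with strong WDR5 it was 4 of 27 (14.8%, 4.19 to 33.7) against 59.0%. Regions with WDR5 in all 3 libraries that was not strong had a peak in 298 of 473 (63.0%), against 58.3% of other regions. A lower share of N-MYC peaks at strong WDR5 sites was thus also measured in the library that the selection had not used, but 1 library allows no test.

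In IMR-32 cells the lost regions divided by WDR5. Over all 150, an N-MYC peak was present at 53 (35.3%) and 44 (29.3%) in IMR-32 replicates 1 and 2, against 54.3% and 34.7% of kept regions, a difference of −12.1 ± 9.61 points (SD, n = 2 libraries, too few for a test). Of the 27 with WDR5 in all 3 DMSO libraries, 22 had N-MYC in both IMR-32 libraries (81.5%), against 48.1% of kept regions with such WDR5 and like N-MYC strength. Where WDR5 was strong, N-MYC was in both at 21 of 25 lost regions (84.0%), 17 of 24 absent from 1 compound list (70.8%) and 61 of 74 kept ones (82.4%). Of the 107 without WDR5, 11 did (10.3%), against 24.4% of kept regions without WDR5, and 74 (69.2%) had it in neither. RPL5, for example, stood at N-MYC percentiles of 99.9 and 99.7 in IMR-32, while NRG1, the gene of an ERBB receptor ligand, had no N-MYC peak in either library at its lost region. IMR-32 was untreated and sequenced in another way, so cell line and run cannot be told apart.

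Most lost regions, 107 of 150, had no WDR5 peak in any DMSO library, and their share of regions (2.65% of 4034) was near the 2.15% of all. They were weak N-MYC sites, with a median mean percentile of 31.1 against 58.9 at the 27 regions with WDR5 in all 3. The strongest were PCAT1, a long noncoding RNA gene (chr8:127835891-127836343), with N-MYC folds of 6.64, 8.19 and 8.62 and a CACGTG at the summit, and NRG1 (chr8:32481623-32482078), with folds of 8.32, 8.79 and 6.36 at a site whose middle was at −22635 bp (upstream) of the nearest TSS. PUS7L (chr12:44151892-44152400), in an intron, had folds of 7.37, 6.33 and 8.05, and the region outside genes shown above (chr6:88589224-88589672) had 9.47, 7.91 and 5.60. In IMR-32 these 4 sites had an N-MYC peak in at most 1 of the 2 libraries. Among the weaker ones, chosen as examples after their values were seen, were promoters of the chromatin genes SETD2, DOT1L and SMARCB1, at mean percentiles of 40.5, 27.9 and 21.3, and of the transcription factor genes OLIG3, DLX6 and CEBPB, at 31.1, 18.0 and 5.31. The weakest was LRRN2, at 3.11.

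The other 16 members had WDR5 in 1 or 2 DMSO libraries, with a median N-MYC percentile of 32.7 and WDR5 folds of 2.60 to 5.81, none strong. RFC3, a subunit of the clamp loader of DNA replication (chr13:34392034-34392945), was the strongest N-MYC site of these and the only lost one on the cell cycle and replication list. Its summit lay in a coding exon, its N-MYC folds were 3.59, 7.08 and 5.57, and WDR5 was listed in DMSO replicate 1 alone, with a fold of 3.48 at rank 3936. PSTK, the kinase that prepares tRNA for selenocysteine, with N-MYC folds of 7.18, 6.33 and 7.67, had WDR5 in all 3 DMSO libraries, at folds of 6.58, 6.76 and 6.44, in no compound library and in both IMR-32 libraries.

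E-boxes were scarce at the lost regions with strong WDR5. CACGTG lay within 100 bp of the DMSO summit at 16.7%, 18.7% and 19.3% of all lost regions in the 3 libraries and at 23.0%, 23.6% and 24.2% of kept regions of like strength, a difference of −5.36 ± 0.827 points (SD, n = 3 libraries that share the regions). Around the median summit it was at 1 of the 27 regions with WDR5 in all 3 DMSO libraries (3.70%, exact 95% interval 0.0937 to 19.0), against 29.1% of kept regions with such WDR5 and like N-MYC strength. Most of those kept regions were not strong in WDR5. Where it was strong, CACGTG was at 1 of 25 lost regions (4.00%, 0.101 to 20.4), 3 of 24 absent from 1 compound list (12.5%, 2.66 to 32.4) and 20 of 74 kept ones (27.0%, 17.4 to 38.6), whose N-MYC was stronger, at a median percentile of 84.8 against 58.9. The listed ribosomal protein genes held 15, 14 and 13 of these regions, in that order, and CACGTG was not compared within that gene class. Any CANNTG was at 8 of the 27 (29.6%). Lost regions without WDR5 had CACGTG at 24 of 107 (22.4%), against 24.3% of kept regions without WDR5, and CANNTG at 77 (72.0%), close to the 69.5% of all regions. A hexamer match describes the sequence and is not shown to be a bound site.

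Position relative to the TSS followed the same division. Over all 150, 103 had their middle within 1 kb of a TSS (68.7%), against 68.9% of kept regions of like strength. Of the 27 with WDR5 in all 3 libraries, 26 were within 1 kb (96.3%), and in 23 the N-MYC summit was within 500 bp downstream of the TSS (85.2%, 66.3 to 95.8), against 41.9% of kept regions with such WDR5. Their median summit was 122 bp downstream (quartiles 64.5 and 167.5), in an intron at 21 of the 27, in a UTR at 3 and outside genes at 3. There the N-MYC and WDR5 summits were 40 bp apart at the median, against 110 bp at kept regions with WDR5 in all 3. Where WDR5 was strong, this distance was 38 bp at lost regions, 53 bp at those absent from 1 compound list and 118.5 bp at kept ones, and the N-MYC summit was within 500 bp downstream at 22 of 25, 18 of 24 and 43 of 74. By these values, not matched on width, N-MYC strength or gene class, the regions absent from 1 list lay between the lost and the kept ones. The listed ribosomal protein genes held 15 of the 25 lost regions, 14 of the 24 absent from 1 list and 13 of the 74 kept ones. Whether position goes with gene class or with loss was not tested. The kept ones were also wider, at a median of 1058.5 bp against 740 bp at lost ones and 766 bp at those absent from 1 list. Their N-MYC was stronger too, at a median percentile of 84.8 against 58.9 and 68.7. Of the 107 without WDR5, 63 were within 1 kb of a TSS (58.9%) and 32 over 10 kb away (29.9%). By canonical transcripts, the summits of all 150 lay in introns at 73, outside genes at 52, in UTRs at 16, in coding exons at 8 and in a noncoding exon at 1. Base composition was alike, with a median GC content of 66.4% in the 201 bases around the summit at lost regions and 67.7% at kept ones. Lost regions lay on all 24 chromosomes, with 5 of 80 regions on X (6.25%), at ZDHHC9, RLIM, PLP2 and 2 sites whose nearest TSS is of a long noncoding RNA gene.

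Of the gene lists, that of the cytosolic ribosomal proteins held the most lost regions. Of 5211 protein-coding genes with a 3-library N-MYC region within 1 kb of a TSS, 110 had a lost one (2.11%). For cytosolic ribosomal proteins it was 15 of 67 (22.4%), with a region absent from 1 compound list at another 18 (26.9%), against 631 of all 5211 (12.1%). All 15 were among the 45 ribosomal protein genes with WDR5 in all 3 DMSO libraries (33.3%), and of the other 22 none was lost and 3 were absent from 1 list.

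Ribosomal protein genes and strong WDR5 overlapped without being the same. Of 42 regions at ribosomal protein genes with strong WDR5, 15 were lost (35.7%, exact 95% interval 21.6 to 52.0), 14 were absent from 1 compound list and 13 were kept. Of 81 strong WDR5 regions at no gene of that list, RPS4Y1 among them, 10 were lost (12.3%, 6.08 to 21.5) and 61 kept. Ribosomal protein regions with WDR5 in fewer than 3 libraries had 0 of 24 lost, for which the interval reaches 14.2%.

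The other lists of the protein synthesis and growth programme had few or no lost regions, by counts not matched on N-MYC strength. Ribosome biogenesis and RNA polymerase I genes had 0 of 44, with none absent from 1 list either, and translation factors had 0 of 36, with 2 absent from 1 list. Nucleotide and one-carbon synthesis had 0 of 27, the spliceosome 2 of 43 (SNRPB and USP39, 4.65%), DNA repair 0 of 45, and cell cycle and DNA replication 1 of 45 (RFC3, 2.22%). None was lost among 12 adrenergic neuroblastoma transcription factors, 14 neuronal adhesion, guidance and synapse genes, 9 genes of the MYC, MAX and MXD network and 14 of WDR5 and its complexes, though 4, 2, 0 and 1 of these were absent from 1 list, beside 12.1% of all protein-coding genes. Long noncoding RNA genes had 22 of 1496 (1.47%). Apart from the ribosomal proteins and the spliceosome, each hand-made list had 0 or 1 lost gene, and for lists of this size a count of 0 cannot be told from the 2.11% of all protein-coding genes.

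**Figure D5:**
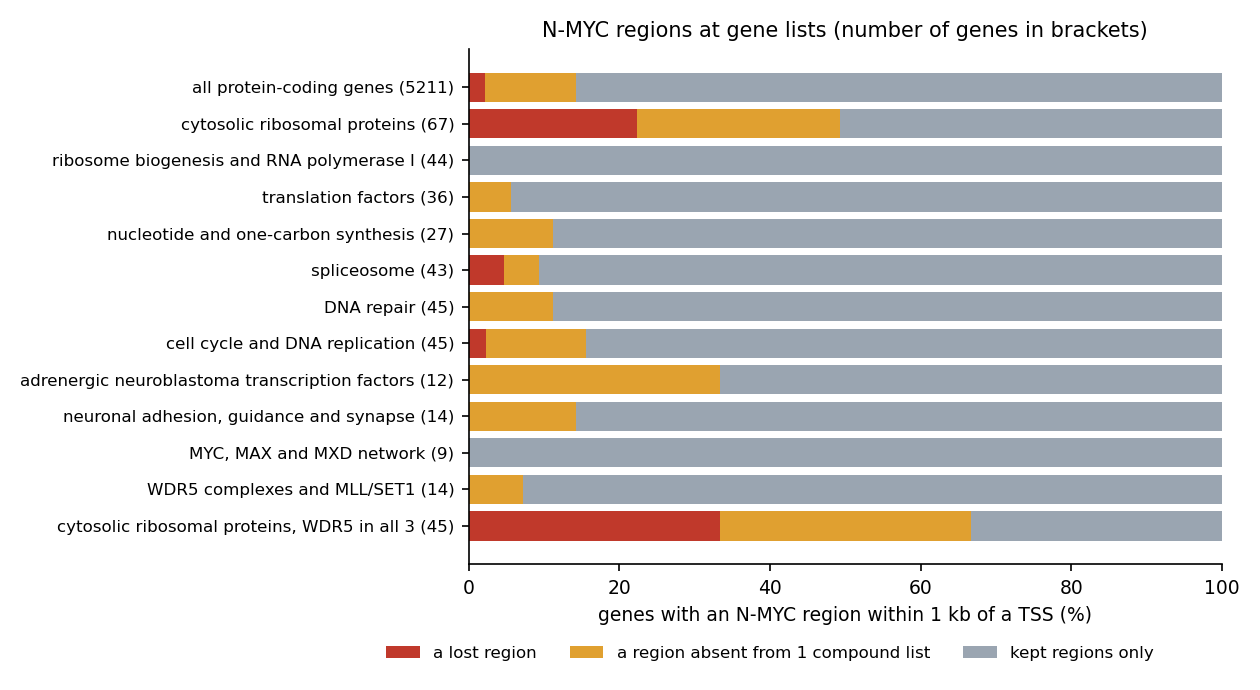
Percent of genes with an N-MYC region within 1 kb of a TSS (horizontal axis) that had a lost region, a region absent from 1 compound list or kept regions only, for each gene list, with the number of genes in brackets. Ribosomal protein genes with WDR5 in all 3 DMSO libraries split into 15, 15 and 15 genes, whereas ribosome biogenesis genes were kept in 44 of 44. The lists are not matched on N-MYC strength.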

How the data were processed

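Peak lists of 16 ChIP-seq libraries were used: CHP-134 N-MYC and WDR5 with DMSO (3 each) or the compound (3 each), and IMR-32 N-MYC (2) and WDR5 (2). IgG libraries were not analysed here. For each library, 3 ChIPs had been pooled. Read trimming was by Cutadapt and alignment to hg19 by Bowtie2, after which the authors called the peaks of each library on its own with MACS2 (q-value 0.05). Program versions and the control library are not given in the sources used here. CHP-134 reads were single and IMR-32 reads paired.

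The deposited lists give each peak's position, summit distance, fold (the authors' linear ratio over local background), −log10 p-value and q-value, and a score from the q-value, which was not used. Folds rank peaks within a list only. The lists hold no counts, so depth is unknown. Intervals are exact Clopper-Pearson 95% and cover counting error only.

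The members and gene lists were chosen with earlier results of these data known. DMSO N-MYC peaks were merged at 1 bp. Regions kept in both large compound lists were weighted to the members' deciles of mean fold percentile. TSSs came from GENCODE 44 on GRCh37 (genes coding for proteins or long noncoding RNAs), and places and sequences used canonical transcripts of the same annotation. Libraries were compared with exact permutation tests, and p-values measure only the spread between libraries. The study's methods state independent repeats of its ChIP-seq, while the labels do not say that replicates are separate cultures. The replicate numbers are shared between groups as numbers only. Named are the 10 members with the highest mean N-MYC percentile, up to 4 lost genes of each list, and the 5 members with WDR5 in the most DMSO libraries by N-MYC percentile. Other names, the strong WDR5 measure (200 peaks), and the splits by it and by ribosomal protein genes were added after the data were seen. Alternatives left out each library, changed the selection, the matching, the windows and the distances. The window of 1 further region is not reported here. The code was tested on simulated data. Python 3.11.15, NumPy 2.4.6, SciPy 1.17.1, pandas 2.3.3 and Matplotlib 3.10.9 were used.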

Additional observations from a re-analysis of the deposited data

How the results depend on the processing

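Of 142 alternative values, 7 reversed, 27 with no test moved beyond the spread or, for counts, beyond a set factor, and 108 kept their direction and any call, though not always their size. The number of lost regions was 255 to 602 when a DMSO N-MYC replicate was left out (602 without replicate 2), 411 and 768 without compound replicate 1 and 3, 56 with DMSO peaks at −log10 q of 5 or more, and 141 to 156 otherwise. Lost regions with WDR5 in all 3 DMSO libraries were 22 to 63.

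The strong WDR5 difference kept its sign in 18 alternatives, from 4.29 to 34.5 points, as did its DMSO-to-compound change, from −32.1 to −4.51. Their lowest sizes came without compound N-MYC replicate 3 and, next, without DMSO N-MYC replicate 2. The difference in any WDR5 peak reversed without DMSO N-MYC replicates 1, 2 and 3 (−2.76, −3.01 and −1.19), without compound N-MYC replicate 3 (−2.97) and with no matching (−2.18), and its change under the compound reversed to 0.35 without DMSO N-MYC replicate 2.

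The IMR-32 N-MYC difference ran from −23.9 to −5.32 points with a library left out (−23.9 without DMSO N-MYC replicate 3, −22.6 without replicate 1), was −29.5 with no matching and reversed to 2.50 at −log10 q of 5 or more. The difference in compound N-MYC replicate 2 was −14.7 to −8.06 with a library left out (−8.06 without compound replicate 1), −25.4 at −log10 q of 5 or more, −40.0 with no matching and −18.5 with classes of the lowest percentile. The CACGTG difference was −5.32 to −0.954 with a library left out (−0.954 without compound replicate 3), −9.78 with compound replicate 2 in the selection, −14.3 at −log10 q of 5 or more, −18.7 with no matching, −8.89 with classes of the lowest percentile and −6.28 in 50 bp windows. The promoter difference was −12.8 to −0.78 with a library left out (−12.8 without DMSO replicate 1) and 12.9 with compound replicate 2 in the selection. The cause was not tested.

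Without a WDR5 library the difference in any WDR5 peak was 3.13 to 9.88 (9.88 without DMSO WDR5 replicate 1) and its change under the compound −11.2 to −4.45 (−11.2 without the same library), and over all left-out libraries these ran from −3.01 to 9.88 and from −11.2 to 0.35. With the replicate block the change under the compound was −6.83 points for any WDR5 peak and −15.3 for strong WDR5 (exact permutation, p = 0.25 for both, the smallest possible). The replicates share only a number, and whether they deviate together could not be checked with 15 peaks in compound WDR5 replicate 2. Unknown depth limits every absence of a peak.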
